A study of Mus musculus with 7 samples.

Results

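Sertoli cell genes were examined in mouse spermatocytes for the repressive histone mark H3K27me3, measured by chromatin immunoprecipitation and sequencing (ChIP-seq). The 10 genes were Wt1, Sox9, Fshr, Vim, Tjp1, Amh, Inha, Clu, Cldn11 and Gdnf, chosen by name as genes used by the somatic nurse cells of the testis tubule, with earlier results of these data known. All 10 were present, once each, among the 23366 gene symbols of the H3K27me3 gene-body count files. The groups were spermatocytes of wild-type CD1 mice at postnatal day 17 (P17) and at postnatal day 12 (P12), taken from digested testes by a Percoll density step, with 1 gene-body file each. The P17 file pools 2 replicates and the P12 file holds 1. The series title frames the question as whether Polycomb repressive complex 2 keeps soma-specific genes silent in male germ cells. Of the series' 7 samples these 2 were used; H3K4me3, EED and input samples were not used here.

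Sertoli cells surround and feed the germ cells of the testis, and spermatocytes at these ages are passing through meiotic prophase beside them. H3K27me3 is written by Polycomb repressive complex 2 and is known for marking developmental genes that a lineage keeps silent. Read counts over a gene body in such a library rise with the amount of the mark but also with the length of the gene and the depth of the library. They do not measure expression, so they cannot check the purity of the cell fraction against its marker genes.

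The files summed to 26664736 reads at P17 and 13462873 reads at P12, a 1.98-fold difference in depth, so each count was scaled to its file's total and is given in CPM, reads per 1000000 counted reads. Gene lengths of the files' genome build were not used, so CPM is compared between stages for the same gene and never between genes. With 1 file per stage there is no spread between replicates and no test. Each value has a 95% interval that covers counting error only, and a difference beyond it separates these libraries, not necessarily the stages. Over the 21808 genes with at least 20 reads in both files together, the median log2 ratio P17/P12 was -0.08 and the 10th to 90th percentile range was -0.34 to 0.47.

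The stretches before the gene start are shown for 4 of the 10 genes: Vim and Cldn11, which carried more scaled H3K27me3 reads at P17, Fshr, whose levels at the stages overlapped, and Tjp1, which carried fewer. The sequences are from RefSeq on build GRCm38.p6, run 5′ to 3′ on the strand of the gene, cover the 250 bases before the start, and have CG dinucleotides in capitals, since CG-rich promoters are known sites of Polycomb binding in mammals.
Vim, chr2:13574061-13574310, plus strand: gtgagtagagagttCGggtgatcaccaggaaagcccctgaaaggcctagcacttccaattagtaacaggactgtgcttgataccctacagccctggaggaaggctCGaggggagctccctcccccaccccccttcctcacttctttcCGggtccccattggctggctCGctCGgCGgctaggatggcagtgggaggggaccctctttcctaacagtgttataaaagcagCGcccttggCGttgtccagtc
Cldn11, chr3:31149670-31149919, plus strand: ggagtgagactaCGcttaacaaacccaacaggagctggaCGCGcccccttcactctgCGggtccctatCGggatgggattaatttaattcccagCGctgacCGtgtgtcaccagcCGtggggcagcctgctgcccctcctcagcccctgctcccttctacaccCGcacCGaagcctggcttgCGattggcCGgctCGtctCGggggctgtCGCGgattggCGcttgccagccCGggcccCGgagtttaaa
Fshr, chr17:89200676-89200925, minus strand: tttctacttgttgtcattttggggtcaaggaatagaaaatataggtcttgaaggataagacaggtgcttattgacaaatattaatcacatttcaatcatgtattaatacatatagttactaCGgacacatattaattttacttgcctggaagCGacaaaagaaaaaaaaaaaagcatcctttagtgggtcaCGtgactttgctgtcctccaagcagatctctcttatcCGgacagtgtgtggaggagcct
Tjp1, chr7:65371245-65371494, minus strand: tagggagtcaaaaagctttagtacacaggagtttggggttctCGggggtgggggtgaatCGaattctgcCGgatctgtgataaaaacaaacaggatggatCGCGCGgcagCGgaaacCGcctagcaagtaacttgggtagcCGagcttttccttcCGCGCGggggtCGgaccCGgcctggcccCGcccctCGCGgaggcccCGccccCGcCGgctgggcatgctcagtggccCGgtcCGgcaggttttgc
These stretches held 8 CG dinucleotides at Vim, 19 at Cldn11, 4 at Fshr and 22 at Tjp1. Cldn11 and Tjp1 held the most of the 4 shown, and whether CG content goes with the change of H3K27me3 was not tested. The promoter table gave sequences for 6 of the 10 genes (also Gdnf and Inha), under the 80% needed, so a check of CG content over the whole set is void and none is drawn. The counted files use the older build mm9, and no position was carried between the builds.

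The 10 genes did not change alike. Between P17 and P12, H3K27me3 reads were higher at P17 by more than counting error for Vim, Inha, Sox9, Wt1, Gdnf and Cldn11, from 2.35-fold at Vim to 1.37-fold at Cldn11. Amh, Clu and Fshr had counting intervals that overlapped between the stages, and Tjp1 was lower at P17 (0.796-fold). The median log2 ratio of the 10 genes was 0.55, beside -0.08 for all genes. Together the 10 genes took 526 CPM at P17, against 389 CPM at P12 (log2 ratio of the sums 0.44, 95% interval 0.39 to 0.48), a sum weighted to the genes with most reads.

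By a fold of size, 5 of the 10 genes (Vim, Inha, Sox9, Wt1 and Gdnf) were over 1.5-fold higher at P17, against 7.55% of all genes tested, and 0 were over 1.5-fold lower, against 2.63%. Vim was the 1 gene over 2-fold higher, against 2.76% of all genes, and 0 of the 10 were over 2-fold lower, against 0.459%. The count over 2-fold depends on the scaling: with edgeR's TMM factors or median-of-ratios factors it was 3, since Inha and Sox9, at log2 ratios of 0.99 and 0.93 here, then joined Vim. Set against the all-gene median, 6 of the 10 genes had their interval wholly above it, against 21.2% of all genes, 1 wholly below it, against 10.1%, and 3 across it. Since the choice of genes was made with earlier results known, these counts describe the 10 genes and are not a test of them.

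**Figure D1:**
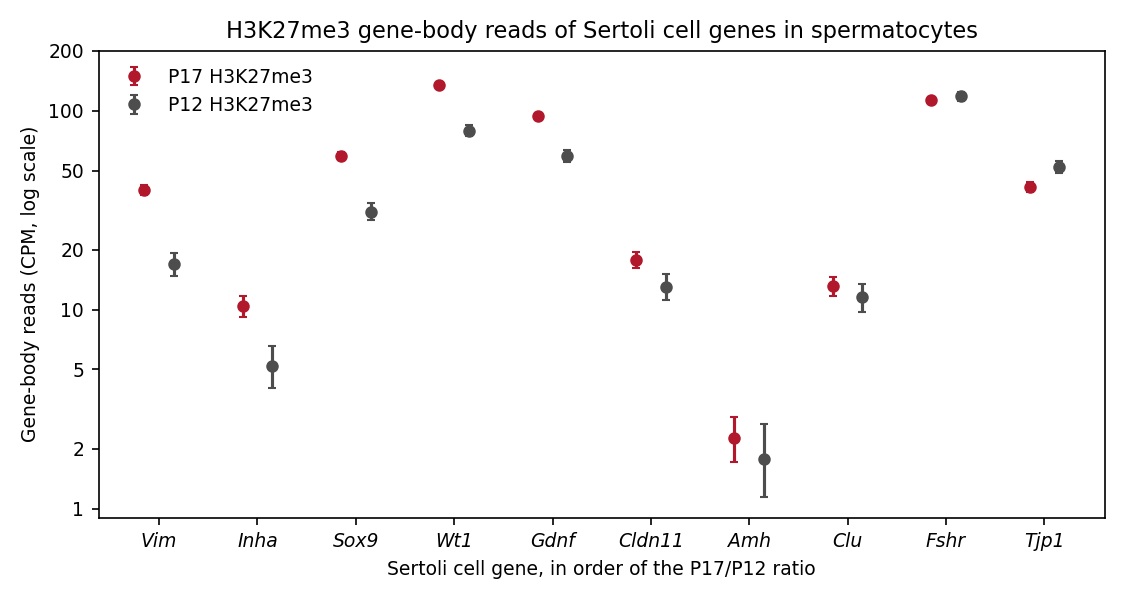
H3K27me3 gene-body reads in CPM (log axis) for the 10 Sertoli cell genes at P17 (red) and P12 (grey); points are the single file of each stage and bars are exact Poisson 95% intervals of the count. Intervals stand apart for 7 genes, and of these only Tjp1 is lower at P17, at 41.5 CPM against 52.1 CPM at P12.

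Both regulators of Sertoli cell identity among the 10 carried more H3K27me3 reads at P17. Wt1 encodes a zinc finger factor needed to form the gonad and to maintain Sertoli cells. It had 3605 reads, or 135 CPM (95% interval 131 to 140), at P17, against 1069 reads, or 79.4 CPM (74.7 to 84.3), at P12. The P17 interval lay wholly above the P12 interval, a 1.70-fold difference (1.59 to 1.82), and the log2 ratio of 0.77 exceeded that of 95.2% of genes tested. Sox9 encodes the factor that drives Sertoli cell fate downstream of Sry. It had 1577 reads, or 59.1 CPM (56.3 to 62.1), at P17, against 418 reads, or 31.0 CPM (28.1 to 34.2), at P12. The intervals were again apart, with a 1.90-fold higher level at P17 (1.71 to 2.13) and a log2 ratio of 0.93, above that of 96.7% of genes.

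Of the secreted factors of the Sertoli cell, Gdnf and Inha carried more scaled reads at P17. Gdnf encodes the growth factor that sustains spermatogonial stem cells. Its 2493 reads at P17 made 93.5 CPM (89.9 to 97.2), against 800 reads and 59.4 CPM (55.4 to 63.7) at P12. The stages did not overlap, and the level was 1.57-fold higher at P17 (1.45 to 1.71), a log2 ratio of 0.65. Inha, which encodes the alpha subunit of inhibin, the feedback hormone on pituitary follicle-stimulating hormone, had 277 reads and 10.4 CPM (9.20 to 11.7) at P17, against 70 reads and 5.20 CPM (4.05 to 6.57) at P12. The stages were apart here too, by 1.99-fold, but with few reads at P12 the interval of the ratio was wide, 1.53-fold to 2.64-fold.

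Amh and Clu gave no difference detectable at this depth. Amh encodes anti-Müllerian hormone, made by immature Sertoli cells. It held 60 reads and 2.25 CPM (1.72 to 2.90) at P17, against 24 reads and 1.78 CPM (1.14 to 2.65) at P12. With the fewest reads of the 10 genes, its log2 ratio of 0.33 had an interval from -0.37 to 1.08, which takes in both a lower level and a 2-fold higher one. Clu encodes clusterin, a major secreted glycoprotein of Sertoli cells. Its 349 reads made 13.1 CPM (11.8 to 14.5) at P17, against 155 reads and 11.5 CPM (9.77 to 13.5) at P12. The intervals overlapped and the log2 ratio was 0.18 (-0.09 to 0.47).

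Fshr encodes the receptor by which Sertoli cells sense follicle-stimulating hormone, and it did not follow Wt1, Sox9 or Gdnf. It had 3015 reads and 113 CPM (109 to 117) at P17, against 1590 reads and 118 CPM (112 to 124) at P12. The intervals overlapped although the gene was among the most deeply counted of the 10. Its log2 ratio of -0.06 (-0.15 to 0.03) was bounded closely around that of the median gene, and its sign turned with the scaling (0.01 with TMM and 0.02 with median-of-ratios factors).

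The structural and junction genes held both ends of the range. Vim encodes vimentin, the intermediate filament protein of Sertoli cells and of many mesenchymal cells. It had 1064 reads and 39.9 CPM (37.5 to 42.4) at P17, against 228 reads and 16.9 CPM (14.8 to 19.3) at P12. Vim had the highest ratio of the 10, 2.35-fold (2.04 to 2.73) or 1.23 in log2, above that of 98.4% of genes. Cldn11 encodes claudin-11, a strand-forming protein of the Sertoli cell tight junctions that make up the blood-testis barrier. It had 475 reads and 17.8 CPM (16.2 to 19.5) at P17, against 175 reads and 13.0 CPM (11.1 to 15.1) at P12. Its stages stood apart with a modest 1.37-fold difference (1.15 to 1.64), a log2 ratio of 0.45.

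Tjp1 encodes ZO-1, the scaffold under the same junctions, which many epithelia use. It had 1106 reads and 41.5 CPM (39.1 to 44.0) at P17, against 702 reads and 52.1 CPM (48.4 to 56.1) at P12. It was the only one of the 10 lower at P17 by more than counting error, at a log2 ratio of -0.33 (-0.47 to -0.19), below all but 10.7% of genes. With TMM factors its log2 ratio was -0.25. The 2 proteins of the tight junction, claudin-11 and ZO-1, thus had genes whose H3K27me3 reads lay on opposite sides of the all-gene median.

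**Figure D2:**
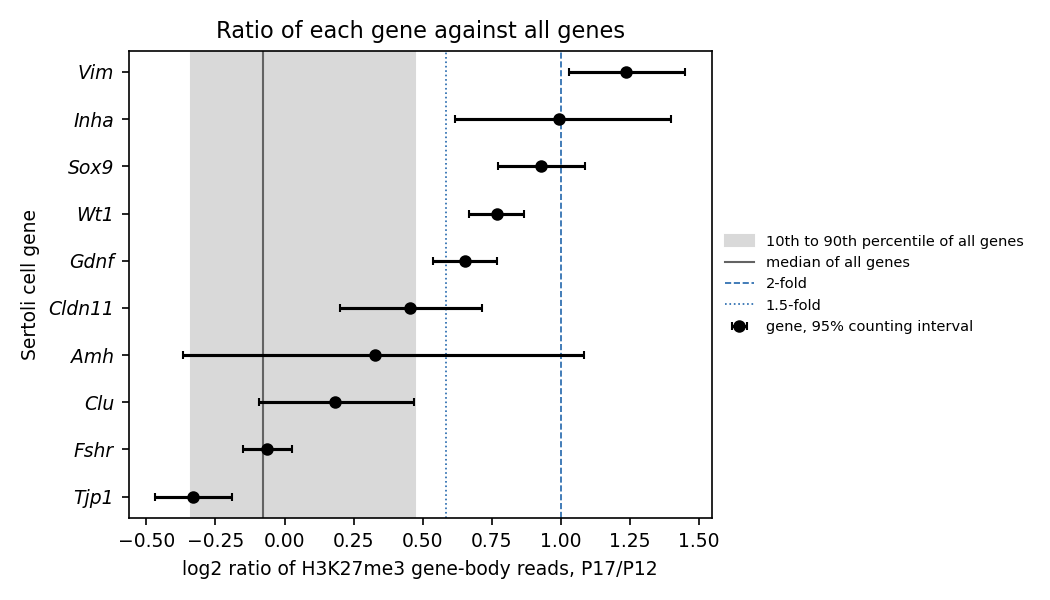
Log2 ratio of H3K27me3 gene-body reads, P17/P12, for each of the 10 genes (points) with exact 95% counting intervals (bars), the 10th to 90th percentile range of all 21808 genes (grey band), their median (solid line) and the 1.5-fold and 2-fold marks (dotted and dashed). Vim, Inha, Sox9, Wt1 and Gdnf lie to the right of the band, and Tjp1 lies inside it near its left edge.

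In the order of ratios, from Vim through Inha, Sox9, Wt1, Gdnf, Cldn11, Amh, Clu and Fshr to Tjp1, 8 of the 9 neighbouring pairs had overlapping counting intervals. The exception was Fshr over Tjp1. The order within the upper genes is therefore not resolved pair by pair, while Vim and Wt1, further apart in the order, had intervals that did not meet (1.03 to 1.45 and 0.67 to 0.87 in log2). By the distance between log2 CPM values over both stages, the 3 genes most like Vim were Eif4ebp1, Tyro3 and Abhd15, at log2 ratios of 1.27, 1.17 and 1.21. Those most like Tjp1 were Nfyc, Dyrk4 and Vps54, at -0.31, -0.30 and -0.30. Likeness here rests on 1 file at each stage and on levels that include gene length. The ratios come from the same levels, so their closeness follows from how these genes were chosen.

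H3K27me3 forms domains that can run past a gene's ends, so the nearest measured gene on each side was taken from the gene order of a GRCm38 table. The 20 such neighbours had a median log2 ratio of 0.01, and 3 of them were over 1.5-fold higher at P17, against 7.55% of all genes. For Vim, Sox9, Gdnf and Cldn11 the interval lay wholly above the intervals of both neighbours. Beside Vim (1.23), Trdmt1, a tRNA methyltransferase gene, stood at -0.24 and the sialyltransferase gene St8sia6 at 0.00. Beside Sox9 (0.93) stood BC006965 at -0.24 and 2610035D17Rik at 0.07, and beside Gdnf (0.65) stood Egflam at -0.08 and Wdr70 at -0.16. Beside Cldn11 (0.45) stood Skil, a regulator of TGF-beta signalling, at -0.06 and Slc7a14 at 0.02. At these 4 genes the higher reads at P17 were thus not shared by the nearest measured gene on either side. Further off, Zmat3, at place +3 from Cldn11, stood at 0.42 (0.24 to 0.61), and its interval overlapped that of Cldn11 (0.20 to 0.71).

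The 3 neighbours over 1.5-fold higher sat beside Wt1, Inha and Amh. Wt1os, the antisense RNA gene of Wt1 (listed in the files as AI314831), had 2146 reads and 80.5 CPM at P17, against 715 reads and 53.1 CPM at P12, a log2 ratio of 0.60 (0.48 to 0.72). The gene next on the other side of Wt1, 0610012H03Rik, stood at -0.12. Wt1 and Wt1os do not overlap in the GRCm38 table, and whether their counted gene bodies overlap in mm9 was not tested.

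Obsl1, a cytoskeletal adaptor gene beside Inha, had 2342 reads and 87.8 CPM at P17, against 600 reads and 44.6 CPM at P12. Its log2 ratio of 0.98 (0.85 to 1.11) was level with the 0.99 of Inha and more closely bounded, and Stk11ip on the other side stood at -0.21. Jsrp1, a muscle junction gene beside Amh, had 338 reads and 12.7 CPM at P17, against 89 reads and 6.61 CPM at P12, a log2 ratio of 0.93 (0.60 to 1.29). That interval overlapped the wide interval of Amh, while the splicing gene Sf3a2 on the other side stood at -0.40. Inha and Amh thus each had a neighbour with about as high a ratio or higher.

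The nearest measured genes beside Fshr, Clu and Tjp1 were nearer to the median gene. Beside Fshr (-0.06) lay Lhcgr, the receptor gene of luteinizing hormone used by Leydig cells, at 0.21 (0.08 to 0.35), and 4933400B14Rik at 0.31 (-0.15 to 0.79). The paired gonadotropin receptor genes thus had intervals that did not meet, with Lhcgr the higher. Further from Fshr, Ston1 at place -3 stood at 0.82 (0.62 to 1.02) and Gm4719 at place +2 at -0.66 (-1.14 to -0.20). Beside Clu (0.18) lay Scara3 at 0.26 and Gulo at -0.29. Beside Tjp1 (-0.33) lay Ndnl2 at 0.22 on 28 and 12 reads at P17 and P12, and Tarsl2 at 0.12 (-0.03 to 0.27). The interval of Tarsl2 lay above that of Tjp1, while that of Ndnl2 was too wide to place.

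**Figure D3:**
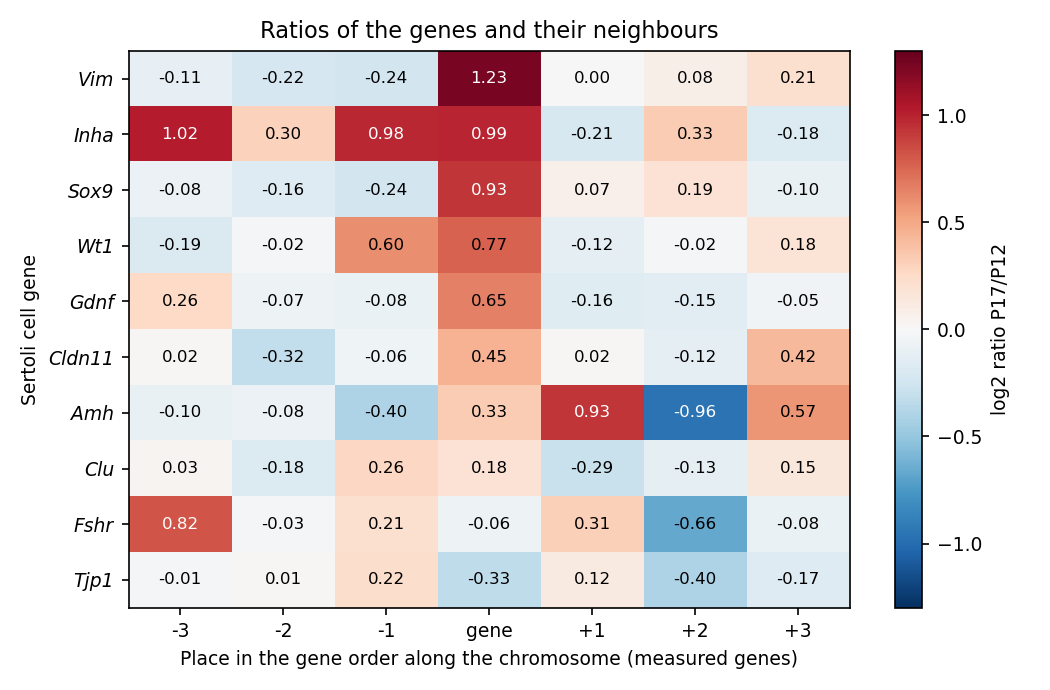
Log2 ratio P17/P12 of H3K27me3 gene-body reads for each of the 10 genes (middle column) and the 3 nearest measured genes on each side in chromosome order (columns -3 to +3); colour runs with the printed ratio, red higher and blue lower at P17. No neighbour of Vim, Sox9 or Gdnf passes 0.26, while Inha has Obsl1 at 0.98 beside it and Amh has Jsrp1 at 0.93. Further off, Cldn11 has Zmat3 at 0.42 (column +3) and Inha has Chpf at 1.02 (column -3). Fshr has Ston1 at 0.82 (column -3) and Gm4719 at -0.66 (column +2). Amh has Lingo3 at 0.57 (column +3) and Oaz1 at -0.96 (column +2).

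A further list of Sertoli cell genes, not overlapping the 10, went the same way by count. It too was chosen with earlier results of these data known, so its counts are a description and not independent support. Of 29 measured, 9 were over 1.5-fold higher at P17, against 7.55% of all genes, and 0 were over 1.5-fold lower, against 2.63%. Intervals of 17 lay above the all-gene median, against 21.2% of all genes, 0 below, against 10.1%, and 12 across it, and the median log2 ratio was 0.31. Rhox5 was listed but not used here. Gja1, the gap junction gene connexin 43, stood highest at 1.13 (0.94 to 1.33), with 42.7 CPM at P17, against 19.5 CPM at P12. Espn, an actin-bundling gene of the Sertoli junctions with germ cells, followed at 1.08 (0.97 to 1.19), with 131 CPM at P17, against 61.7 CPM at P12. These 2 were the genes of the list over 2-fold higher.

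Partners of the 10 genes were among the rest of the 9. The inhibin and activin beta subunit genes Inhba and Inhbb, whose products pair with that of Inha, stood at 0.80 (0.58 to 1.02) and 0.76 (0.61 to 0.92). Sox8, the relative of Sox9 that shares its role in Sertoli cells, stood at 0.81 (0.65 to 0.98), with 50.8 CPM at P17, against 28.9 CPM at P12. The gonadal regulators Nr5a1 and Gata4 both stood at 0.62, the keratin gene Krt18 at 0.60 and Dhh, the hedgehog signal from Sertoli to Leydig cells, at 0.59. At the other end, Gata1 had the lowest ratio, -0.30 (-0.90 to 0.30), on 64 reads at P17 and 40 at P12. Of the other tight junction genes on the list, Ocln stood at 0.14 (0.00 to 0.28), Cldn5 at 0.39 (0.18 to 0.61) and Cldn3 at 0.49 (0.26 to 0.73).

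Lists of other testis cells had medians nearer to the all-gene median. Of 12 Leydig cell genes, 0 were over 1.5-fold higher or lower, against 7.55% and 2.63% of all genes. Intervals of 5 lay above the all-gene median, against 21.2% of all genes, and 2 below, against 10.1%. Their median log2 ratio was 0.05, from Pdgfra, a growth factor receptor gene, at 0.39 to Star, which brings cholesterol into mitochondria for steroid synthesis, at -0.55. Of 12 peritubular, endothelial and macrophage genes, 0 were over 1.5-fold higher, against 7.55% of all genes, and 1 was over 1.5-fold lower, against 2.63%. The lower one was the macrophage gene Cd68 at -0.74 (-1.60 to 0.09) on 28 reads at P17 and 24 at P12. Intervals of 1 of the 12 lay above the all-gene median, against 21.2% of all genes, and 0 below, against 10.1%. Their median was -0.04, with the vessel receptor gene Kdr highest at 0.48. Of 24 meiotic prophase genes, which spermatocytes use, 0 were over 1.5-fold higher or lower, against 7.55% and 2.63% of all genes. Intervals of 10 lay below the all-gene median, against 10.1% of all genes, and 1 above, against 21.2%. Their median was -0.19, and they ran from the cohesin gene Rec8 at 0.32 to the synaptonemal complex gene Sycp3 at -0.52. Tjp1, at -0.33, was the only one of the 10 Sertoli cell genes below the meiotic median. No test was made between the lists, whose genes are not replicates.

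**Figure D4:**
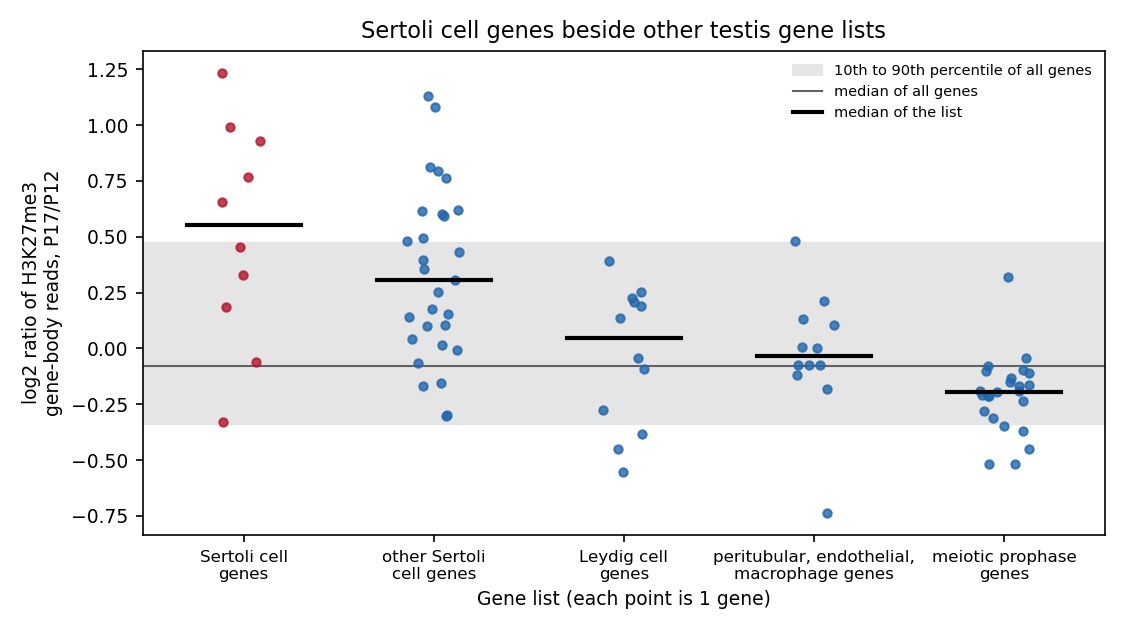
Log2 ratio P17/P12 of H3K27me3 gene-body reads for each gene (points) of 5 lists, with the median of each list (black bar), the 10th to 90th percentile range of all genes (grey band) and their median (thin line). The medians are 0.55 for the 10 Sertoli cell genes, 0.31 for the other Sertoli cell genes, 0.05 for Leydig cell genes, -0.04 for peritubular, endothelial and macrophage genes, and -0.19 for meiotic prophase genes.

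Fixed motifs were searched on both strands of the 300-base windows, which reach 250 bases before and 50 after the start, at the 6 genes with sequence (7 windows, since Gdnf had 2). Of the GATA factor motifs, AGATAA was in 1 window, at Gdnf, against 11.2% of all 32851 windows. In the same Gdnf window AGATAG shared letters with it, and that motif was in 8.95% of all windows. The motif TGATAA was in 1 window, at Tjp1, against 9.05% of all, and TGATAG in 0, against 7.29%. No other matches at the 6 genes shared letters. The SOX-type motifs ACAAAG and ACAATG were in 0 of the 7, against 28.6% of all windows. CANNTG, the E-box, which reads alike on both strands, was in 4 of the 7, with 3 copies at Fshr, against 72.3% of all windows. TATAAA was present at Vim and in 1 Gdnf window, against 13.6% of all. These are matches of letters in short windows and say nothing of binding.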

How the data were processed

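Spermatocytes of P17 and P12 mice were profiled by ChIP-seq. The authors' deposited H3K27me3 gene-body files give unnormalized integer counts for each gene symbol, made with multiBamCov per the file names, with no input subtraction recorded; Bowtie, SAMtools, HTSeq and mm9 are named in the submitters' processing notes without roles or versions. Groups come from sample titles. The 5 deposited peak files were not used, since no mm9 gene positions were at hand to place peaks on genes.

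Counts were scaled to the file total (CPM). The log2 ratio P17/P12 had 1 read added, in proportion to library size, and genes needed 20 reads over both files; the 146 symbols with several entries (310 entries) stayed in the totals only. Ratios have exact conditional (Clopper-Pearson) 95% intervals and levels exact Poisson 95% intervals. The ratio and its interval were tested on simulated Poisson counts, the counting error that the interval assumes. That checks the calculation and not the spread between real libraries. Scaling alternatives used edgeR 4.0.16 and DESeq2 1.42.0 under R 4.3.3; other steps used Python 3.11.15, numpy 2.4.6, pandas 2.3.3 and scipy 1.17.1.

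The 10 genes and all lists were chosen with earlier results of these data known. Named from the further lists were genes over 1.5-fold higher or lower and otherwise each list's highest and lowest. Ocln, Cldn3 and Cldn5 were named after their values were seen. Neighbour genes come from a GRCm38 table (21412 symbols and 1622 synonyms of 23220 matched), used for names and order only. Whether gene bodies of neighbours overlap in mm9 was not tested.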

Additional observations from a re-analysis of the deposited data

How the results depend on the processing

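TMM and median-of-ratios factors raised the all-gene median by 0.07 and 0.08 in log2 and all 10 genes with it. The median log2 ratio of the 10 genes was then 0.63 with either, that of the further Sertoli cell genes 0.38 with either, and the count over 2-fold higher at P17 was 3 with either. With at least 100 reads required, which leaves out Amh, the medians were 0.65 for the 9 remaining genes and 0.39 for the further Sertoli cell genes. Other alternatives were a total without the 14 multicopy entries over 2000 CPM, no minimum of reads, and pseudocounts of 5 or 0.25 reads. They left these counts within 1.5 times and moved each median by less than the counting error of its list's summed reads. The counts over 1.5-fold higher (5 of the 10 genes, 9 further genes) were equal under all 7 alternatives. Counts of intervals above (6) and below (1) the all-gene median were equal too, but this was nearly fixed in advance. Scaling moves the intervals and the all-gene median together, and the pseudocount does not enter the intervals. Among the 10 genes the sign turned for Fshr alone, with TMM and median-of-ratios factors. No paired analysis was possible because each stage has 1 file, the P17 file a pool, and no replicate could be left out. Depth limits Amh and Inha most. Differences between animals, in the purity of the cell fraction or in enrichment over input cannot be told apart from stage.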
